A study of Mus musculus with 30 samples.

Results

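Autophagy and lysosome genes were read in mouse liver after 12 weeks on 5 diets that differed in protein source, protein content and sulfur amino acids. The 37 genes, listed by symbol, were each found once among the 14173 genes of the deposited count tables. They comprise 20 genes of the autophagy machinery, 10 lysosomal hydrolases, 6 other lysosomal proteins and the transcription factor *Tfeb*. All 30 livers came from male C57BL6/J mice aged 6 months, with 6 mice on each diet and 1 library from each mouse. Mice arrived at 9 weeks of age and ate Cas-20% or Soy-20% for 2 weeks, the casein groups the former and the soy groups the latter. At 12 weeks of age they moved to their final diet, and livers were taken after a fast of 4 h. Cas-20% held 20% casein with 0.57 gm% methionine and 0.41 gm% cysteine, and Cas-5% held 5% casein with 0.15 gm% methionine and 0.1 gm% cysteine. The soy diets were Soy-20% with 0.22 gm% of each amino acid, Soy-20% + SAA with 20% soy, 0.58 gm% methionine and 0.41 gm% cysteine, and Soy-10% with 11.5% soy and 0.13 gm% of each. Protein source and acclimation diet cannot be told apart in any comparison of casein with soy, and the restricted diets differed in protein content as well as in source. Protein content and sulfur amino acids fell together in each restriction, so they cannot be told apart there. How the 6 sequenced mice were picked from each diet group is not given in the sources used here.

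Autophagy is the route by which a cell encloses part of its own cytoplasm in a membrane sac and delivers it to the lysosome. Initiation factors start that membrane, a conjugation system related to ubiquitin transfer attaches ATG8 proteins to its lipids, and cargo receptors such as SQSTM1 tie cargo to those ATG8 proteins. Lysosomal hydrolases, most of them active only at acid pH, then break the contents down to amino acids, sugars and lipids. In liver this turnover is known to run high during fasting and low after feeding, under control of amino acid and insulin signalling through mTORC1. TFEB, held in the cytoplasm when mTORC1 is active, binds the CLEAR element found near the start of many lysosomal genes, and much of the pathway's control acts on proteins rather than on mRNA.

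Since CLEAR elements bear on which of these genes could move together, promoter windows were read for the members. RefSeq gave 36 windows for 32 of the 37 members on GRCm38.p6, each running from 250 bases before to 50 bases after an annotated start. Both strands were searched for the E-box CACGTG, for the CLEAR core TCACGTGA, which contains the E-box, and for TGATGNAAN, a composite element of the kind bound by ATF4. The CLEAR core was found in windows of *Ctsa*, *Ctsd*, *Gla*, *Mcoln1* and *Atg3*, 5 of the 32 members, against 1.12% of 27025 genes with a window. An E-box alone was found in *Ctsl*, *Lamp1*, *Atg5*, *Atg7* and *Atg14*, which brought the members with an E-box to 10 of 32, against 8.09% of genes. The ATF4 composite was found in *Ctsl* alone among the members, against 4.5% of genes. *Gla*, *Mcoln1* and *Atg14* held an E-box but were not called after casein restriction, and *Gabarap* fell without one. Windows of those genes are not shown. The windows below were picked by motif and by fall, and belong to the 7 members that held an E-box and fell after casein restriction. They are followed by *Cd63*, the member that rose most and held none of the 3 motifs. Each is written 5′ to 3′ on the strand of the gene, and capitals mark every match. In *Ctsd*, *Ctsa* and *Atg3* the capitals cover CLEAR cores and any further E-box, in *Ctsl* they cover the ATF4 composite, read on the other strand, and 1 E-box, and in *Lamp1*, *Atg5* and *Atg7* they cover E-boxes.
*Ctsd* (ENSMUSG00000007891, gene at chr7:142375911-142388038, window at chr7:142387778-142388077, minus strand): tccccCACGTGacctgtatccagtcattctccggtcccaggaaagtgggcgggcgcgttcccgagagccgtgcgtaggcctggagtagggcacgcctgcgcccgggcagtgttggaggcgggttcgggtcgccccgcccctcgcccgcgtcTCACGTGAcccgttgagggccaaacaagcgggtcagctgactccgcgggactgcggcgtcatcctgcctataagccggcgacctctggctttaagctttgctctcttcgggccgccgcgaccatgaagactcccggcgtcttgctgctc
*Ctsa* (ENSMUSG00000017760, gene at chr2:164832873-164841032, window at chr2:164833523-164833822, plus strand): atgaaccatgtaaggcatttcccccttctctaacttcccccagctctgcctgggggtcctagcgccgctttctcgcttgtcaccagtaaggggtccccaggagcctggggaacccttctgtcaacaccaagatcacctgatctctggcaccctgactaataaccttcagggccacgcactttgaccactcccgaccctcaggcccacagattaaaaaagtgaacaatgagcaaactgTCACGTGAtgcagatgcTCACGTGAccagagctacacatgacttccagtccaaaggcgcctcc
*Ctsl* (ENSMUSG00000021477, gene at chr13:64359337-64370890, window at chr13:64370471-64370770, minus strand): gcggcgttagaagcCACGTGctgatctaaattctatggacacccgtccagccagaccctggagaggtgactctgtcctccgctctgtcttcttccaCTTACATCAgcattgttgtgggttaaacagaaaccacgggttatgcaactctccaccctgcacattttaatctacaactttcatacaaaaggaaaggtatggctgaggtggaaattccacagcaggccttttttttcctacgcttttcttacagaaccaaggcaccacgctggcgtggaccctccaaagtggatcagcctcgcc
*Lamp1* (ENSMUSG00000031447, gene at chr8:13159161-13175338, window at chr8:13158911-13159210, plus strand): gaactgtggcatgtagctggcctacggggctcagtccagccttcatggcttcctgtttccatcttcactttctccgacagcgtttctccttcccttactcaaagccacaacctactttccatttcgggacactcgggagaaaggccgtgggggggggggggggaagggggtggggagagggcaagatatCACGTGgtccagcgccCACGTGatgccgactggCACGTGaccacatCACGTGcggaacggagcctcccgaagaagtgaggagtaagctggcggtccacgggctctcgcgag
*Atg5* (ENSMUSG00000038160, gene at chr10:44268358-44364291, window at chr10:44268089-44268388, plus strand): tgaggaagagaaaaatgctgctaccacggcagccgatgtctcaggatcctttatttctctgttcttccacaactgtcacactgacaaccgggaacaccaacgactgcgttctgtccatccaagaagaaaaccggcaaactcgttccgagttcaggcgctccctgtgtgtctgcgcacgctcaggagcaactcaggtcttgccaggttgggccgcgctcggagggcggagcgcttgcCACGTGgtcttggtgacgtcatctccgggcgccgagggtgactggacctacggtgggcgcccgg
*Atg3* (ENSMUSG00000022663, gene at chr16:45158785-45188538, window at chr16:45158579-45158878, plus strand): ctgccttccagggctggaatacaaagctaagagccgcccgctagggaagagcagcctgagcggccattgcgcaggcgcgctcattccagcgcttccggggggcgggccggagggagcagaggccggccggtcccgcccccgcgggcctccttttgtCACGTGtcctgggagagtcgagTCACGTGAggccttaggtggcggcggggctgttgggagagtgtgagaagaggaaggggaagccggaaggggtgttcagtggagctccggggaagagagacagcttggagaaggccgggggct
*Atg7* (ENSMUSG00000030314, gene at chr6:114643097-114860614, window at chr6:114670846-114671145, plus strand): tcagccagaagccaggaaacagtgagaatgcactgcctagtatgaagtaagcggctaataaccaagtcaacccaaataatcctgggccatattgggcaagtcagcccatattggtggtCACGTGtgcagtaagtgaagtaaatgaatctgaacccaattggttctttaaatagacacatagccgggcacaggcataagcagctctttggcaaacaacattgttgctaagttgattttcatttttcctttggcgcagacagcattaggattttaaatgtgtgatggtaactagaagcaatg
*Cd63* (ENSMUSG00000025351, gene at chr10:128900989-128912822, window at chr10:128909095-128909394, plus strand): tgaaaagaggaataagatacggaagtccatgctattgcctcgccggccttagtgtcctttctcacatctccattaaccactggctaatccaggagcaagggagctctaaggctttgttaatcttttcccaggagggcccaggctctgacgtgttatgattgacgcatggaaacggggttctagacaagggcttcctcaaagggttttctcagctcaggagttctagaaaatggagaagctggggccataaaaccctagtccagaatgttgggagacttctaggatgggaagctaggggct
A match is a description of these letters and does not show that a factor binds there. In *Lamp1* 4 E-boxes lay close together before the start, and in *Ctsa* the matches lay around the more downstream of its 2 starts. The 5 members with no window were *Becn1*, *Atg12*, *Atg16l1*, *Map1lc3a* and *Ctsb*. The other members called in a comparison of diets, shown without a sequence, include *Ctsb* (ENSMUSG00000021939, chr14:63122462-63145923), *Gabarap* (ENSMUSG00000018567, chr11:69991143-69994951), *Wipi1* (ENSMUSG00000041895, chr11:109573331-109611967), *Map1lc3a* (ENSMUSG00000027602, chr2:155276297-155278073), *Becn1* (ENSMUSG00000035086, chr11:101285952-101302286), *Atg14* (ENSMUSG00000037526, chr14:47540893-47570649) and *Grn* (ENSMUSG00000034708, chr11:102430315-102437048). The windows of *Cd63* and *Atg7* belong to starts 8356 and 27999 bases inside the gene as GENCODE draws it, and that of *Atg14* to a start 2215 bases inside, so their letters do not lie at the first base of the gene. Among the other windows shown, those of *Ctsa*, *Ctsl*, *Ctsd* and *Atg3* belong to starts 900, 370, 211 and 44 bases inside.

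Each library held between 7694015 and 14565542 counts, with a median of 10803734. Levels are given as the authors' normalized read counts, which are counts divided by a library size factor and not scaled to gene length, so they are compared between diets and not between genes. Members ranged from *Atg9a*, with a mean of 4.05 over the 30 livers, to *Ctsl*, with a mean of 5512. *Atg9a*, the scramblase that seeds the autophagosome membrane, was too low for the test in any comparison, and the other 36 members were tested in all. All 8 hepatocyte markers were in the table, and their summed normalized counts lay between 695322 and 926776 in every liver. Livers 4 to 6 of Soy-20% + SAA stood apart from the rest, and liver 3 lay between them and the others. In livers 4 to 6 counts rose with the GC content of the transcript 3′ end. The slopes were 0.164 to 0.186 on the log2 scale for each 10% of GC. Liver 3 had a slope of 0.048, and all other livers −0.065 to 0.038. Except for cell markers, calls, class medians and named members that rest on this diet are therefore given with and without livers 3 to 6. Leaving them out keeps only livers 1 and 2 of that diet, so lost calls can also reflect fewer livers. Liver 4 of Soy-10% held 6766 normalized counts of pancreatic acinar markers, against at most 6.71 in any other liver. The 3′ ends of *Becn1*, *Map1lc3b*, *Sqstm1*, *Lamp1*, *Ctsb*, *Ctsz* and *Grn* overlap a gene on the other strand. Whether the counting used strand is not given in the sources used here, so reads of these genes and their partners cannot be told apart. As liver is a mixed tissue, fewer cells of a type and less RNA per cell cannot be told apart.

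Casein restriction lowered more of these genes than it raised. Comparing Cas-5% with Cas-20% asks what the liver did when casein, and methionine and cysteine with it, was cut at a fixed protein source. Of 36 members 12 differed at an adjusted p of 0.05 or less by edgeR's quasi-likelihood test, 3 higher and 9 lower on Cas-5%. Of all genes tested 24.9% were called, 11.6% higher and 13.3% lower, set against 33.3% of the members, 8.33% higher and 25.0% lower. The 19 tested machinery genes split into 2 rises and 4 falls with a median log2 fold change of 0.00, close to the 0.02 of all genes. Among the 10 hydrolases 4 fell and none rose, with a median of −0.18, and 1 of 6 other lysosomal genes rose and 1 fell. Diets did not overlap for 7 members, with Cas-5% above in *Cd63* and below in *Atg3*, *Atg5*, *Lamp1*, *Ctsb*, *Ctsd* and *Ctsl*, against 12.9% of all genes.

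The 4 hydrolases that fell were cathepsins. *Ctsl* encodes cathepsin L, an endopeptidase of the lysosome. Its normalized count ran from 6448 to 8042 with a median of 7116 on Cas-20%, and from 4383 to 6099 with a median of 5122 on Cas-5%. Every Cas-5% liver lay below every Cas-20% liver, a log2 fold change of −0.46 (SE, the standard error, 0.08, edgeR adjusted p = 0.00065). *Ctsd* encodes cathepsin D, the main aspartic protease of the lysosome, and measured 2386, 2703 and 3286 (lowest, median and highest) on Cas-20% against 1708, 2074 and 2260 on Cas-5%. The groups did not overlap, and the log2 fold change was −0.40 (SE 0.09, edgeR adjusted p = 0.0021). *Ctsb*, for the cysteine protease cathepsin B, measured 3548, 4108 and 4445 on Cas-20% against 2803, 3121 and 3493 on Cas-5%. These groups were again separate, with a log2 fold change of −0.36 (SE 0.07, edgeR adjusted p = 0.0014). The *Ctsb* 3′ end overlaps *Fdft1* on the other strand, and *Fdft1* measured −0.28 in this comparison (edgeR adjusted p = 0.16). *Ctsa*, for the carboxypeptidase that also protects neuraminidase and beta-galactosidase, measured 654, 741 and 870 on Cas-20% against 554, 609 and 674 on Cas-5%. Only the lowest Cas-20% livers met the highest Cas-5% livers, with a log2 fold change of −0.28 (SE 0.07, edgeR adjusted p = 0.011).

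The other 6 hydrolases were not called. *Gla*, for alpha-galactosidase, had a log2 fold change of −0.38 (SE 0.15, edgeR adjusted p = 0.07) from levels of only 23.7 to 44.8 normalized counts in the 12 casein livers. *Hexa* at 0.22, *Ctsz* at 0.21, *Ctss* at 0.12, *Neu1* at −0.05 and *Lipa* at −0.08 spread on both sides of zero. *Ctss* encodes cathepsin S, which is typical of macrophages. Markers of Kupffer cells and macrophages were called in 0 of 11 genes (1 at an unadjusted p under 0.05, and 0 by DESeq2), and their summed counts overlapped, from 4043 to 6451 on Cas-20% and from 4544 to 6280 on Cas-5%. Of red blood cell markers 4 of 5 were lower on Cas-5%, with sums of 11503 to 19812 against 15728 to 34944. Of sinusoidal endothelium markers 2 of 6 were higher, with sums of 2898 to 3370 against 2661 to 3068. In that list *Pecam1* went the other way and was not called. It measured 309 ± 30.0 (mean ± SD, n = 6) on Cas-20% and 264 ± 20.0 on Cas-5%. Of hepatocyte markers 4 of 8 were called, 2 higher and 2 lower, with median sums of 765595 on Cas-20% and 867757 on Cas-5%. Of all genes tested 24.9% were called. The part of these cell types in the changes of the members was not tested.

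Among lysosomal membrane genes, *Lamp1* and *Cd63* moved in opposite directions. *Lamp1* encodes an abundant glycoprotein of the lysosomal membrane. It measured 4961, 5390 and 5953 (lowest, median and highest) on Cas-20% and 3982, 4510 and 4597 on Cas-5%, without overlap and with a log2 fold change of −0.29 (SE 0.06, edgeR adjusted p = 0.0034). *Grtp1*, on the other strand at its 3′ end, measured 0.11 (edgeR adjusted p = 0.38). *Cd63* encodes a tetraspanin of late endosomes, lysosomes and secreted vesicles. Its counts were 68.7, 95.7 and 117 on Cas-20% and 153, 213 and 272 on Cas-5%. No Cas-5% liver overlapped with the controls, with a log2 fold change of 1.21 (SE 0.15, edgeR adjusted p = 1.6e-05), a 2.31-fold rise that was the largest of any member in this comparison. Of the 50-base stretches within the last 300 bases of the *Cd63* transcripts, 46.1% also occur in the pseudogene *Cd63-ps*. Counted separately, *Cd63-ps* measured 13.8 ± 4.13 (SD, n = 6) on Cas-20% and 13.4 ± 5.16 on Cas-5%. Of 6 stellate and fibroblast markers 2 were higher on Cas-5% (*Reln* and *Dcn*), or 33.3%, against 24.9% of all genes called. The rest were not called. The summed counts of the markers were 3799 to 5168 against 3273 to 4127 on Cas-20%, and their part in the rise of *Cd63* was not tested. *Lamp2*, for the partner glycoprotein, had a log2 fold change of −0.11 (edgeR adjusted p = 0.16), and *Mcoln1*, *Psap* and *Grn* measured −0.04, 0.12 and −0.11, none of them called.

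**Figure D1:**
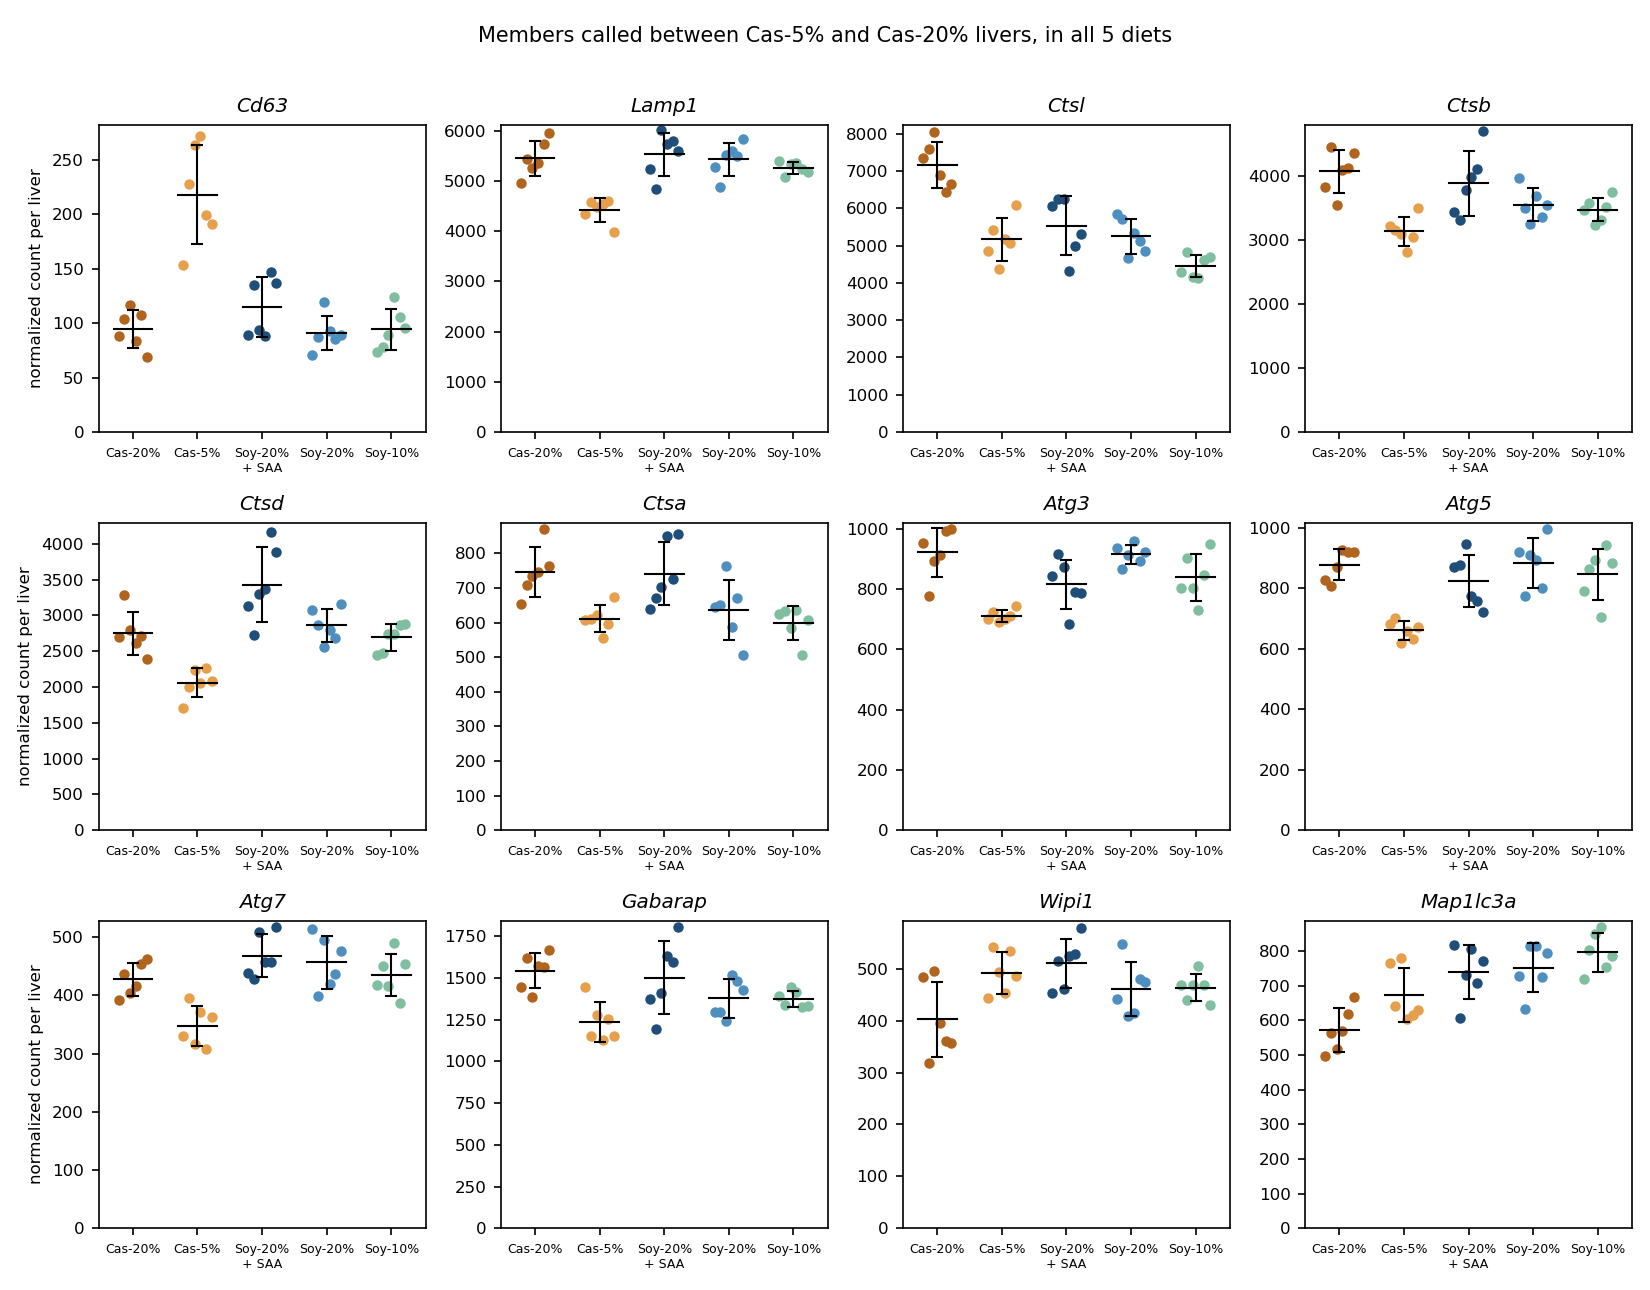
Normalized read counts of the 12 members called in the casein comparison, by diet, with a dot for each liver and bars for the mean ± SD of 6 livers. In *Cd63* the 6 Cas-5% livers lie between 153 and 272, above all livers of the other diets, and in *Atg5* they lie between 619 and 703, below all of them.

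Within the conjugation system 3 of 6 genes fell and none rose, where 13.3% of all genes were called lower and 11.6% higher. *Atg5* encodes the protein that joins ATG12 to form the conjugating enzyme for ATG8 lipidation. Its counts were 808, 895 and 927 on Cas-20% and 619, 667 and 703 on Cas-5%, with no overlap and a log2 fold change of −0.40 (SE 0.06, edgeR adjusted p = 0.00015). *Atg3*, for the E2-like enzyme that hands ATG8 proteins to lipid, measured 776, 933 and 999 on Cas-20% and 691, 705 and 745 on Cas-5%. Again the groups were separate, with a log2 fold change of −0.36 (SE 0.07, edgeR adjusted p = 0.00076). *Atg7*, for the E1-like enzyme that activates ATG12 and the ATG8 proteins, measured 391, 426 and 463 against 308, 346 and 395. The ranges met at their edges, with a log2 fold change of −0.29 (SE 0.08, edgeR adjusted p = 0.0098). *Atg12*, *Atg16l1* and *Atg4b*, for the ATG5 partner, its scaffold and the protease that trims ATG8 proteins, measured 0.02, 0.01 and 0.09 and were not called.

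Among the 5 ATG8 genes *Gabarap* fell and *Map1lc3a* rose, where 24.9% of all genes were called. *Gabarap* measured 1389, 1570 and 1668 on Cas-20% against 1127, 1202 and 1448 on Cas-5%, with a log2 fold change of −0.31 (SE 0.07, edgeR adjusted p = 0.0053). *Map1lc3a*, for an LC3 protein, measured 496, 566 and 668 against 604, 636 and 779, with a log2 fold change of 0.25 (SE 0.09, edgeR adjusted p = 0.05). The groups of either gene overlapped. *Gabarapl2* had a log2 fold change of −0.21 (edgeR adjusted p = 0.066), and *Map1lc3b* and *Gabarapl1*, at 0.15 and 0.09, were not called. Of 7 tested initiation genes *Wipi1*, for a phosphoinositide-binding protein of the forming membrane, rose. It measured 319, 378 and 496 on Cas-20% and 444, 490 and 542 on Cas-5%, with overlap and a log2 fold change of 0.30 (SE 0.10, edgeR adjusted p = 0.039). The kinase genes *Ulk1* and *Ulk2* measured −0.13 and −0.12, *Atg13* −0.06, *Wipi2* 0.00, and the lipid kinase subunits *Becn1* and *Atg14* 0.10 and −0.26, none of them called. *Sqstm1*, for the cargo receptor p62, lay between 2871 and 3498 in all 12 casein livers with a log2 fold change of 0.01, while *Mrnip*, on the other strand at its 3′ end, was at 0.77 (edgeR adjusted p = 0.00063). *Tfeb* had −0.06 (SE 0.20). The rises of *Wipi1* and *Map1lc3a* were the least firm, since each lost its call with the library GC slope as a covariate and in 8 and 9 of the 12 fits that left out 1 liver, while the other 10 calls held in all of those fits.

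The falls lay mostly in genes with an E-box in the promoter window. Of the 10 members with an E-box, 7 fell after casein restriction, and of the 21 tested members whose windows held none, 1 fell (*Gabarap*) and 2 rose (*Wipi1* and *Cd63*). *Ctsb*, which also fell, had no window, and the *Atg7* window lay far inside the gene. The median log2 fold change was −0.32 with an E-box and 0.00 without. Across all genes tested with a window the split was smaller, with 15.2% of 1115 genes with an E-box lower on Cas-5% against 13.4% of 8199 without. With the longer CLEAR core 3 of 5 members fell, against 16.0% of 213 genes with it and 13.6% of those without. On Soy-10% against Soy-20% + SAA, described next, 4 of 10 members with an E-box and 1 of 21 without were lower, against 9.43% and 8.37% of all such genes. With livers 3 to 6 of Soy-20% + SAA left out, the count with an E-box fell to 1 of 10 (*Ctsl*) and that without to 0 of 21, against 0.963% and 1.44% of all such genes. These splits were looked at after the calls were known and were not tested.

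**Figure D2:**
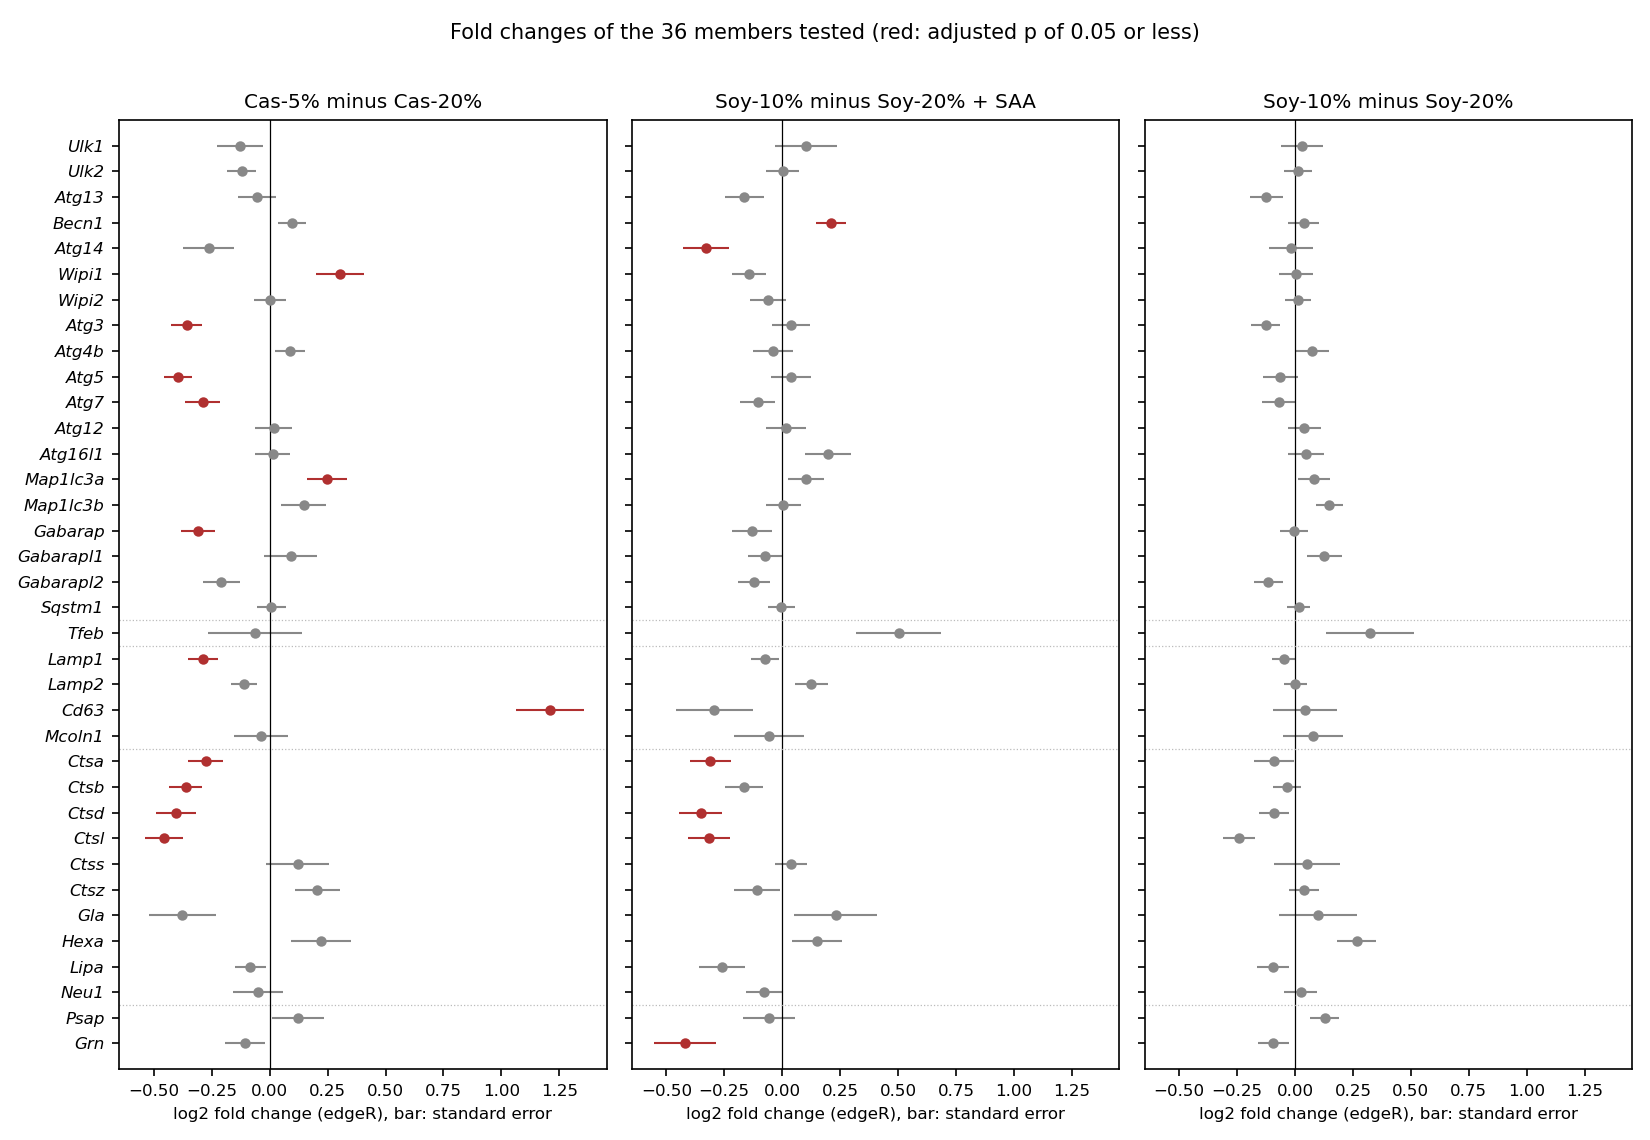
Log2 fold change with its standard error for the 36 tested members, ordered by role, in Cas-5% against Cas-20%, Soy-10% against Soy-20% + SAA and Soy-10% against Soy-20%, with called genes in red. The casein panel holds 12 called genes from −0.46 (*Ctsl*) to 1.21 (*Cd63*), the second panel 6 and the third panel none.

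Soy restriction gave 6 calls or none among the members, depending on the control. Against Soy-20% + SAA, whose sulfur amino acids were set near those of Cas-20%, 6 of 36 members were called on Soy-10%, 1 higher and 5 lower, by the same test. Of all genes 17.0% were called there, 8.51% higher and 8.47% lower, near the members' 16.7%. *Becn1* was the higher gene, and *Atg14*, *Ctsa*, *Ctsd*, *Ctsl* and *Grn* were lower. Only *Becn1* and *Ctsa* did not overlap, against 6.22% of all genes. Leaving out 1 liver at a time, *Becn1* and *Grn* lost their calls in 9 of 12 fits, *Atg14* in 7, *Ctsl* in 6, *Ctsa* in 5 and *Ctsd* in 3, and without the Soy-10% liver that held acinar markers 3 of the 6 were called. The medians were −0.005 for machinery genes, −0.14 for hydrolases and −0.07 for other lysosomal genes, against −0.01 over all genes. When livers 3 to 6 of Soy-20% + SAA were left out they were −0.01, −0.02 and 0.02, against 0.00 over all genes, with 5 of 10 hydrolases negative, and 1 member and 2.54% of all genes were called.

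*Ctsl* was the only member whose call on Soy-10% held without livers 3 to 6 of Soy-20% + SAA. It measured 4314, 5684 and 6253 (lowest, median and highest) on Soy-20% + SAA and 4131, 4450 and 4827 on Soy-10%. The Soy-10% livers filled the low end of the control range, with a log2 fold change of −0.32 (SE 0.09, edgeR adjusted p = 0.031). Without livers 3 to 6 it was −0.48 (SE 0.08, edgeR adjusted p = 0.0078), and with the GC slope as a covariate −0.51 (edgeR adjusted p = 0.0028). *Ctsd* measured 2732, 3334 and 4171 on Soy-20% + SAA and 2448, 2745 and 2878 on Soy-10%, a log2 fold change of −0.35 (SE 0.09, edgeR adjusted p = 0.021) with little overlap. Within the control diet its mean was 2929 in livers 1 and 2 and 3682 in livers 3 to 6, and without the latter the log2 fold change was −0.13 (edgeR adjusted p = 0.51). *Ctsa* measured 640, 715 and 856 against 506, 616 and 637, all Soy-10% livers being below, with a log2 fold change of −0.31 (SE 0.09, edgeR adjusted p = 0.029) that became −0.14 (edgeR adjusted p = 0.52) without livers 3 to 6.

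*Grn* encodes progranulin, a secreted and lysosomal protein cut into granulins. It measured 1379, 1934 and 2320 on Soy-20% + SAA and 1233, 1435 and 1541 on Soy-10%, with a log2 fold change of −0.42 (SE 0.13, edgeR adjusted p = 0.044). The control values were split, with a mean of 1481 in livers 1 and 2 and 2106 in livers 3 to 6, and the log2 fold change without the latter was −0.07 (edgeR adjusted p = 0.79). *Fam171a2*, on the other strand at its 3′ end, measured −0.17 (edgeR adjusted p = 0.74). Of 11 Kupffer cell and macrophage markers 2 were higher on Soy-10%, or 18.2%, against 17.0% of all genes called. Their sums were 4902 to 8559 on Soy-10%, with a median of 5401, against 4784 to 6088 with a median of 5183. Calls of these markers without livers 3 to 6 are not given here, and the part of the markers in these results was not tested. *Becn1*, for the core subunit of the autophagy lipid kinase complex, measured 447, 492 and 512 against 529, 548 and 614. Its groups were separate with a log2 fold change of 0.21 (SE 0.06, edgeR adjusted p = 0.036), and 0.15 (edgeR adjusted p = 0.41) without livers 3 to 6. *Atg14*, for the subunit that directs this complex to autophagy, measured 189, 219 and 238 against 147, 170 and 207, with a log2 fold change of −0.33 (SE 0.10, edgeR adjusted p = 0.035), and −0.18 (edgeR adjusted p = 0.57) without them. Neither gene kept its call with the GC covariate. *Tfeb*, at 24.3 to 39.2 on Soy-20% + SAA and 27.4 to 58.4 on Soy-10%, had a log2 fold change of 0.50 (SE 0.18, edgeR adjusted p = 0.07), and 0.72 (SE 0.28, edgeR adjusted p = 0.23) without livers 3 to 6. *Lipa*, for lysosomal acid lipase, had −0.26 (edgeR adjusted p = 0.083), and −0.05 (edgeR adjusted p = 0.81) without them.

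**Figure D3:**
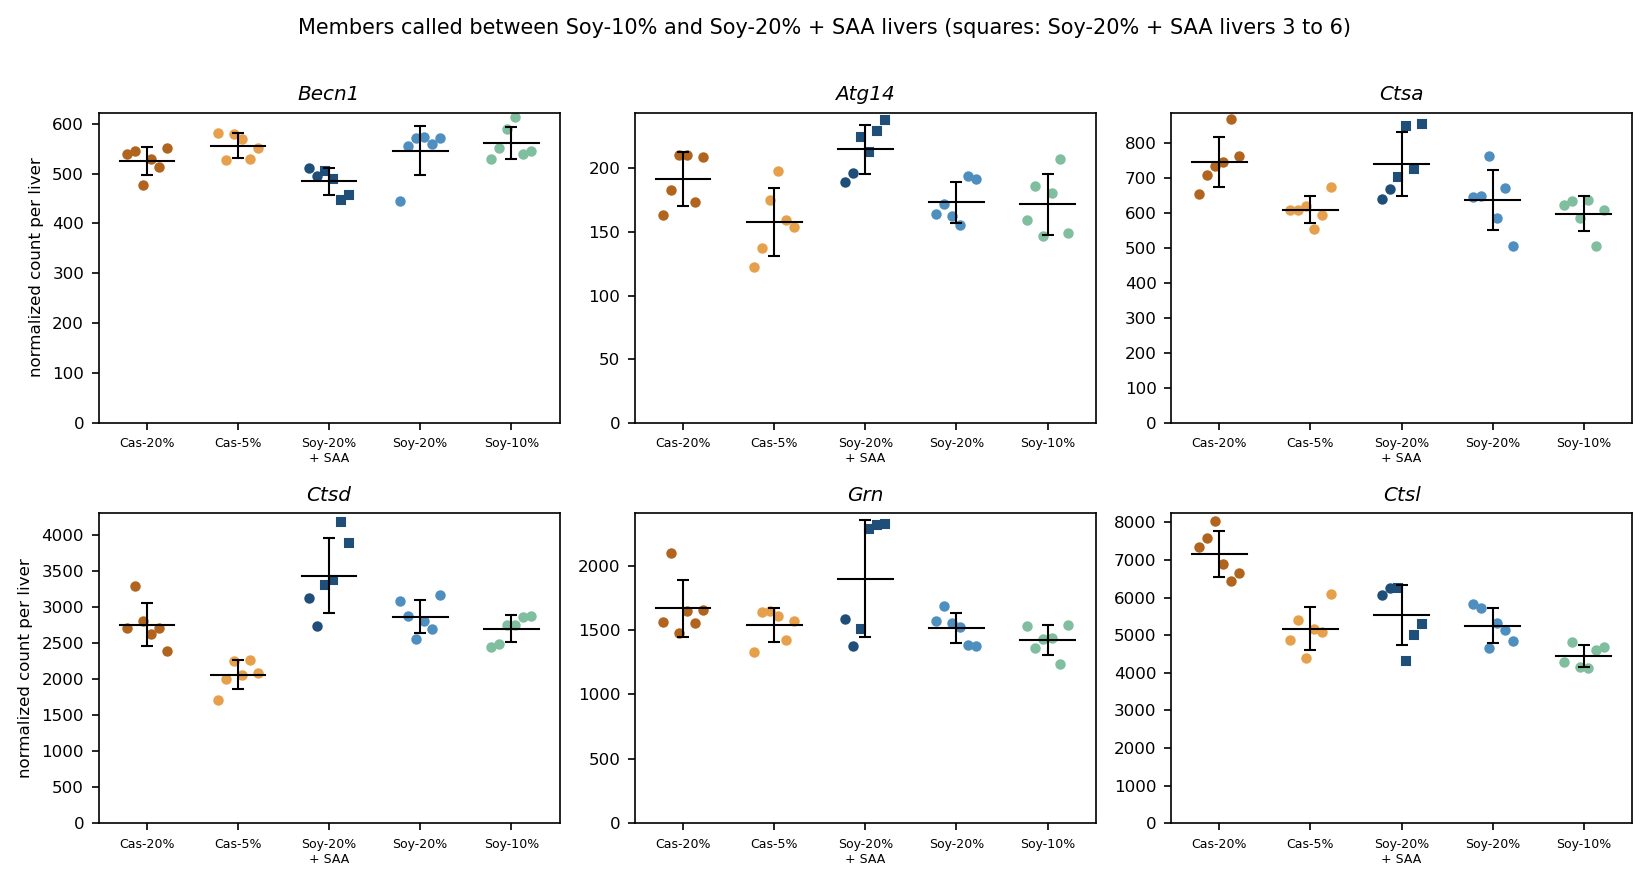
Normalized read counts of the 6 members called between Soy-10% and Soy-20% + SAA, by diet, with a marker for each liver and bars for the mean ± SD of 6 livers, and squares for livers 3 to 6 of Soy-20% + SAA. In *Grn* those squares reach 2320 while livers 1 and 2 lie at 1379 and 1583, and in *Ctsl* the Cas-20% livers lie above all soy livers.

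Against Soy-20%, the diet with the same protein source and no added sulfur amino acids, edgeR called 0 of 36 members on Soy-10%, where 0.866% of all genes were called. An unadjusted p under 0.05 was reached by 3 members, *Ctsl*, *Hexa* and *Map1lc3b*, and DESeq2 called 1, *Ctsl*. *Ctsl* measured 4658, 5231 and 5834 on Soy-20% and 4131, 4450 and 4827 on Soy-10%, with slight overlap and a log2 fold change of −0.24 (SE 0.07, edgeR adjusted p = 0.12, DESeq2 adjusted p = 0.037). *Hexa*, for a subunit of beta-hexosaminidase, had 0.27 (edgeR adjusted p = 0.16) and *Map1lc3b* 0.15 (edgeR adjusted p = 0.29). For *Cd63* the log2 fold change was 0.04 with a standard error of 0.14, and for *Atg5* −0.06 with 0.08. The class medians were 0.01 for machinery genes, −0.005 for hydrolases and 0.02 for other lysosomal genes.

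The casein and soy effects were set against each other directly. With Soy-20% + SAA as the soy control, the effect of casein less that of soy was called for 4 members, where 8.69% of all genes were called. These were *Cd63* at 1.499 (SE 0.23, edgeR adjusted p = 0.00042), *Wipi1* at 0.44 (SE 0.13, edgeR adjusted p = 0.035), *Atg5* at −0.44 (SE 0.10, edgeR adjusted p = 0.012) and *Atg3* at −0.40 (SE 0.10, edgeR adjusted p = 0.019), all on the log2 scale. Without livers 3 to 6 of Soy-20% + SAA only *Cd63* was called, at 1.45, and *Wipi1*, *Atg5* and *Atg3* measured 0.37, −0.35 and −0.29 (edgeR adjusted p = 0.23, 0.1 and 0.21). With the GC covariate *Cd63* and *Atg5* were called. With Soy-20% as the control 4 members were again called, against 5.99% of all genes. *Cd63* measured 1.16 (SE 0.21, edgeR adjusted p = 0.0012), *Atg5* −0.34 (SE 0.10, edgeR adjusted p = 0.034), *Ctsb* −0.34 (SE 0.09, edgeR adjusted p = 0.026) and *Gabarap* −0.31 (SE 0.09, edgeR adjusted p = 0.045). Left out 1 at a time, livers cost *Wipi1* its call in 10 of 24 fits of the former test, and cost *Gabarap*, *Atg5* and *Ctsb* theirs in 18, 12 and 1 of 24 fits of the latter. The call of *Cd63* held in all of these fits. Both tests share the casein livers and the Soy-10% livers. The pseudogene *Cd63-ps* had a difference of 1.15 (edgeR adjusted p = 0.051) against Soy-20% + SAA, where its soy effect alone was −1.22 (edgeR adjusted p = 0.0058), and −1.18 (edgeR adjusted p = 0.09) without livers 3 to 6. For *Ctsl*, *Ctsd* and *Ctsa* no difference between the effects was called with either control.

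On the restricted diets themselves 8 of 36 members differed between Cas-5% and Soy-10%, 2 higher and 6 lower on Cas-5%, against 10.7% of all genes. *Cd63* measured 153 to 272 on Cas-5% and 73.1 to 124 on Soy-10%, a log2 difference of 1.23 (SE 0.15, edgeR adjusted p = 4.3e-05) without overlap. Here 4 of 6 stellate and fibroblast markers were higher on Cas-5%, with summed counts of 3799 to 5168 against 3459 to 4032, and their part in this difference was not tested. Of the conjugation genes *Atg5* was lower, at −0.34 (SE 0.07, edgeR adjusted p = 0.0035) with all Cas-5% livers below, and *Atg7* at −0.31, *Atg12* at −0.25 and *Atg3* at −0.22 were lower with overlap (edgeR adjusted p = 0.012, 0.029 and 0.032). *Lamp1* at −0.23 and *Ctsd* at −0.37 were lower with every Cas-5% liver below every Soy-10% liver (edgeR adjusted p = 0.0096 and 0.0026). *Ctsl* ran the other way, at 0.23 (SE 0.07, edgeR adjusted p = 0.049), with a median of 5122 on Cas-5% and 4450 on Soy-10%. Without the Soy-10% liver that held acinar markers 7 were called. The call of *Ctsl* was lost in 10 of 12 fits that left out 1 liver, that of *Atg3* in 8 and that of *Atg12* in 7.

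The control diets differed in few members. Between Cas-20% and Soy-20% edgeR called 2, where 2.69% of all genes were called. *Ctsl* lay at 6448 to 8042 on Cas-20%, above all Soy-20% livers at 4658 to 5834, with a log2 difference of 0.45 (SE 0.08, edgeR adjusted p = 0.0064). *Map1lc3a* lay at 496 to 668 on Cas-20% and 633 to 814 on Soy-20%, nearly separate, with −0.39 (SE 0.08, edgeR adjusted p = 0.022). With the GC covariate *Map1lc3a* had −0.34 (edgeR adjusted p = 0.083) and was not called. Between Cas-20% and Soy-20% + SAA, the pair matched for sulfur amino acids, edgeR called 0 members, where 2.43% of all genes were called. An unadjusted p under 0.05 was reached by 6 members, and DESeq2 called 4, *Ctsl* at 0.37, *Map1lc3a* at −0.38, *Wipi1* at −0.35 and *Ctsd* at −0.33. Every Cas-20% liver lay above every Soy-20% + SAA liver in *Ctsl* there too, with a log2 difference of 0.37 (SE 0.10, edgeR adjusted p = 0.056), and without livers 3 to 6 it was 0.21 (edgeR adjusted p = 0.71). *Map1lc3a*, *Wipi1* and *Ctsd* measured −0.32, −0.27 and −0.10 by edgeR without them (edgeR adjusted p = 0.66, 0.75 and 0.91).

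Adding sulfur amino acids to Soy-20% gave 0 calls among the members by edgeR, and 0.00838% of all genes, a single gene, was called. DESeq2 called 1 member, *Atg14*, and an unadjusted p under 0.05 was reached by 6. For Soy-20% minus Soy-20% + SAA *Atg14* had a log2 difference of −0.30 (SE 0.09, edgeR adjusted p = 0.076), *Grn* −0.32 (edgeR adjusted p = 0.16), *Ctsd* −0.25 (edgeR adjusted p = 0.13) and *Becn1* 0.18 (edgeR adjusted p = 0.16). *Gabarapl1* and *Atg3* were the others. Without livers 3 to 6 of Soy-20% + SAA no member was called by edgeR and 1 had an unadjusted p under 0.05, with *Atg14* at −0.16, *Grn* at 0.03, *Ctsd* at −0.04 and *Becn1* at 0.12. Of the 10 hydrolases 9 had a negative difference with all livers, with a median of −0.11, and 5 without livers 3 to 6, with a median of −0.01. Over members, with all livers, the difference correlated with 3′ GC content at r = −0.23 (Spearman −0.20, n = 36 genes of the same 12 libraries), and over all genes at r = −0.24.

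Over all 5 diets 17 of 36 members differed, where 43.4% of all genes were called. The largest F statistics belonged to *Cd63* at 26.1 (edgeR adjusted p = 1.1e-07), *Ctsd* at 17.7 (edgeR adjusted p = 4e-06) and *Ctsl* at 17.0 (edgeR adjusted p = 5.5e-06). The 17 were 10 machinery genes (*Becn1*, *Atg14*, *Wipi1*, *Atg3*, *Atg5*, *Atg7*, *Atg12*, *Map1lc3a*, *Gabarap* and *Gabarapl2*), 4 hydrolases (*Ctsa*, *Ctsb*, *Ctsd* and *Ctsl*) and *Lamp1*, *Cd63* and *Grn*. Without livers 3 to 6 of Soy-20% + SAA 13 were called, *Becn1*, *Atg14*, *Wipi1* and *Grn* being lost. The order of the diets differed from gene to gene. *Ctsl* was highest on Cas-20% at 7159 ± 608 (mean ± SD, n = 6) and lowest on Soy-10% at 4451 ± 298. Between them lay Soy-20% + SAA at 5530 ± 794, Soy-20% at 5254 ± 468 and Cas-5% at 5167 ± 573. With all livers these middle 3 lay within an SD of each other. Within Soy-20% + SAA the *Ctsl* mean was 6162 in livers 1 and 2 and 5214 in livers 3 to 6. *Ctsd* was highest on Soy-20% + SAA at 3431 ± 522, with means of 2929 in livers 1 and 2 and 3682 in livers 3 to 6. It lay at 2861 ± 229, 2749 ± 298 and 2693 ± 187 on Soy-20%, Cas-20% and Soy-10%, and was lowest on Cas-5% at 2059 ± 201. *Cd63* lay between 91.0 ± 15.9 and 115 ± 27.5 on 4 diets and at 218 ± 45.6 on Cas-5%. *Lamp1* lay at 5263 ± 122 to 5535 ± 428 on the same 4 diets and at 4422 ± 234 on Cas-5%. *Atg12* measured 352 ± 39.5 on Cas-20% and 353 ± 23.4 on Cas-5% against 414 ± 32.8 to 426 ± 39.9 on the soy diets. Within Soy-20% + SAA the *Atg12* mean was 367 in livers 1 and 2 and 447 in livers 3 to 6. *Map1lc3a* was lowest on Cas-20% at 572 ± 63.8 and highest on Soy-10% at 796 ± 56.1. *Gabarapl2*, called in the test over 5 diets alone, measured 295 ± 21.8 on Cas-5% and 329 ± 18.9 to 358 ± 28.6 elsewhere.

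The remaining 19 tested members were called in no comparison. They included the initiation kinases *Ulk1* and *Ulk2*, *Atg13*, *Wipi2*, *Atg4b*, *Atg16l1*, *Map1lc3b*, *Gabarapl1*, *Sqstm1*, *Tfeb*, *Lamp2*, *Mcoln1*, *Psap* and 6 hydrolases. *Sqstm1* spanned 2871 to 3700 over all 30 livers, with diet means between 3180 and 3442. *Tfeb* diet means lay between 30.0 and 42.9.

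As the rule for these genes sets machinery against hydrolases, each liver was given the mean centred log2 CPM of the 10 hydrolases minus that of the 20 machinery genes. The difference was 0.10 ± 0.13 (mean ± SD, n = 6) on Cas-20%, 0.00 ± 0.08 on Cas-5%, 0.02 ± 0.09 on Soy-20% + SAA, −0.05 ± 0.08 on Soy-20% and −0.06 ± 0.07 on Soy-10%. All diets overlapped, with single livers from −0.05 to 0.30 on Cas-20% and from −0.12 to 0.05 on Soy-10%. Shifts between diets in this balance were of the order of the spread between livers. Within Soy-20% + SAA the mean was −0.02 in livers 1 and 2 and 0.03 in livers 3 to 6.

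**Figure D4:**
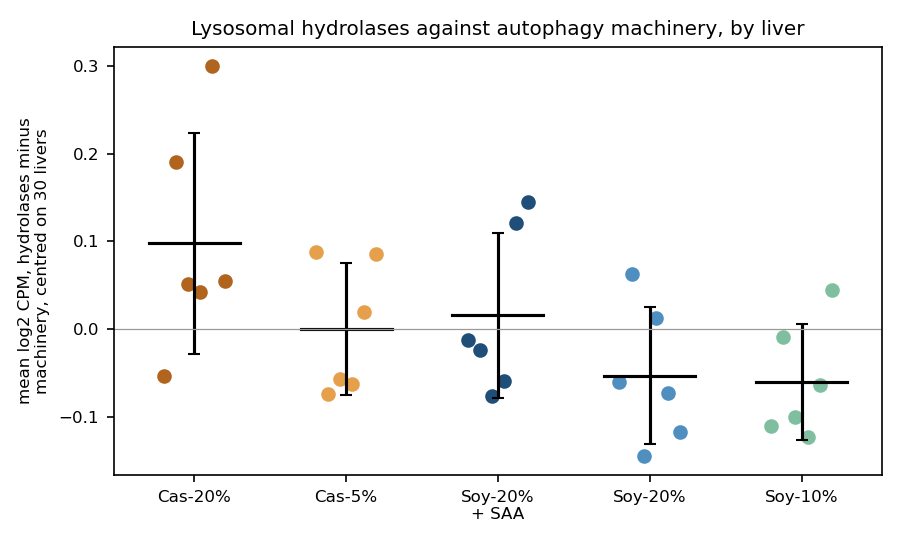
Mean centred log2 CPM of the 10 hydrolases minus that of the 20 machinery genes in each liver, by diet, with a marker for each liver and bars for the mean ± SD of 6 livers. Cas-20% livers reach 0.30 and Soy-10% livers stay at or below 0.05, and all 5 diets overlap.

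Genes of the same pathways outside the 37 were read from 7 hand-written lists of 123 genes, 122 of them in the table. After casein restriction 34 of 121 tested were called, 12 higher and 22 lower, with 33 called by DESeq2. That was 28.1% of the list genes, 9.92% higher and 18.2% lower, against 24.9%, 11.6% and 13.3% of all genes. Wider lysosomal hydrolases gave 7 falls and 1 rise among 33, V-ATPase subunits 3 falls and 1 rise among 15, and membrane proteins and cofactors 4 falls and 2 rises among 21. *Dnase2a*, the DNase of the lysosome, was the rise, from 193, 240 and 275 (lowest, median and highest) on Cas-20% to 443, 496 and 595 on Cas-5%. The groups were far apart, with a log2 fold change of 1.10 (SE 0.10, edgeR adjusted p = 4.8e-07). *Pla2g15*, the lysosomal phospholipase, had −0.56 (edgeR adjusted p = 0.00081). In the proton pump *Atp6v1g1* measured −0.51 and *Atp6v0d1* −0.26 (edgeR adjusted p = 0.0004 and 0.02). *Atp6ap2*, a pump accessory protein and (pro)renin receptor, rose from 475, 557 and 620 to 694, 807 and 1018, without overlap, by 0.61 (SE 0.10, edgeR adjusted p = 0.00018).

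Sorting genes gave 2 rises and 1 fall among 6, with *Sort1*, a sorting receptor, at 0.73 (edgeR adjusted p = 0.0021), *Nagpa*, which uncovers the mannose 6-phosphate signal, at 0.38 (edgeR adjusted p = 0.016), and *Igf2r*, the receptor for that signal, at −0.36 (edgeR adjusted p = 0.0079). Of the membrane list *Atp13a2*, a polyamine transporter, measured 0.54, *Laptm4b* 0.31 and the cystine exporter gene *Ctns* −0.45 (edgeR adjusted p = 0.0041, 0.0067 and 0.0063). Selective autophagy receptors split evenly, 2 higher and 2 lower among 15, with the receptor for endoplasmic reticulum *Retreg1* at −0.61 (edgeR adjusted p = 0.00029), the mitochondrial *Phb2* at −0.20 and *Bnip3l* at 0.21 (edgeR adjusted p = 0.019 and 0.023). Wider machinery genes also split, 4 and 4 among 25, with *Atg101* at −0.34, *Plekhm1* at −0.34 and *Trp53inp2* at 0.32 (edgeR adjusted p = 0.0012, 0.02 and 0.013). Of 6 TFE and FOXO factor genes *Foxo3* fell, with a log2 fold change of −0.58 (edgeR adjusted p = 6.2e-05), from 304, 351 and 415 on Cas-20% to 220, 230 and 249 on Cas-5%. The shares called were 50.0% of sorting genes, 26.7% of receptors, 32.0% of wider machinery genes and 16.7% of factors, against 24.9% of all genes.

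In Soy-10% against Soy-20% + SAA 24 of 120 list genes were called, 15 higher and 9 lower (31 by DESeq2), which was 20.0% against 17.0% of all genes. Of these 10 were wider hydrolases, 7 higher and 3 lower, 3 wider machinery genes, 2 receptors, 2 V-ATPase subunits, 4 membrane genes, 2 sorting genes and 1 factor. Without livers 3 to 6 of Soy-20% + SAA 3 were called, where 2.54% of all genes were, *Dnase2a* at 0.62 (edgeR adjusted p = 0.043), *Atp6ap2* at 0.42 (edgeR adjusted p = 0.012) and *Atg16l2*, a paralog of the *Atg16l1* scaffold, at −1.06 (edgeR adjusted p = 0.0037). Calls such as *Arsa* at 1.297, *Igf2r* at 0.79, *Ctsc* at 0.57 and *Foxo3* at −0.63, with all 12 livers, were not made without those 4. Against Soy-20% 1 of 120 was called, or 0.833% against 0.866% of all genes. This was *Atp6ap2*, at 657, 707 and 766 on Soy-20% and 825, 864 and 930 on Soy-10%, without overlap and with a log2 fold change of 0.29 (SE 0.05, edgeR adjusted p = 0.017). DESeq2 also called 1 there, and 12 genes had an unadjusted p under 0.05.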

How the data were processed

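Liver RNA of 30 mice, 6 on each of 5 diets as labelled, was sequenced from transcript 3′ ends (QuantSeq). The deposited raw count table was made by the authors from the reads of each gene and library and was left unscaled, and the deposited normalized signal by dividing those counts by DESeq2 size factors. The submitters' processing notes name R 4.0.3 and DESeq2 1.30 with GRCm38, and the study's methods name the Lexogen QuantSeq FWD pipeline on Bluebee for mapping and counting, whose aligner, counter and strand setting are not given in the sources used here. The table holds 14173 genes with a total of at least 90 counts over the 30 livers, and symbols lacking for 1718 genes were taken from GENCODE for 1684. Library totals of 7694015 to 14565542 counts set the precision.

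Genes were tested in R 4.3.3 with edgeR 4.0.16 (filterByExpr, TMM, quasi-likelihood F test, two-sided) on the livers of the diets compared, with Benjamini-Hochberg adjustment over all genes tested and calls at 0.05. Mice are the replicates. The members and lists were chosen with earlier results of these data known. Members called in any comparison are given with their values, the others by range, and up to 3 genes of each wider list by adjusted p, of which 1 is not reported here. Alternatives were DESeq2 1.42.0, RLE size factors, other filters on low counts (none, or a mean of 10 per liver), the replicate number as a block, all 30 livers in 1 fit, the GC slope of each library as a covariate, Soy-20% + SAA without livers 3 to 6, and leaving out each liver. Scores use log2 CPM with a prior count of 2. Promoter windows are from RefSeq. The fitting code was tested on simulated data. Figures were drawn with matplotlib 3.10.9 in Python 3.11.15.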

Additional observations from a re-analysis of the deposited data

Results flagged for a closer look

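In 2 of 85 groups, each the 6 livers of 1 diet for 1 of 17 members called in some comparison, a single liver lay far from the others (a gap, as a share of the whole range, above Dixon's critical value at 95%, which chance passes in about 1 of 20 groups). *Becn1* was lowest in Soy-20% liver 1, at 445.7 normalized counts, a gap of 0.853 of the range, and *Grn* was highest in Cas-20% liver 2, at 2096, a gap of 0.709 of the range.

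The effect of casein restriction differed from that of soy restriction by a test of the difference itself in 8 cases. Against Soy-20% + SAA the effect of casein less that of soy was 0.44 for *Wipi1*, −0.40 for *Atg3*, −0.44 for *Atg5* and 1.499 for *Cd63* on the log2 scale. Against Soy-20% it was −0.34 for *Atg5*, −0.31 for *Gabarap*, 1.16 for *Cd63* and −0.34 for *Ctsb*. Of all genes 8.69% were called against Soy-20% + SAA and 5.99% against Soy-20%. *Cd63* and *Atg5* differed with either control, and both tests share the casein and Soy-10% livers. Without livers 3 to 6 of Soy-20% + SAA, only *Cd63* kept its call against that diet. In fits that left out 1 liver, *Wipi1* lost its call against Soy-20% + SAA in 10 of 24. Against Soy-20%, *Atg5* lost its call in 12 of 24 such fits, *Gabarap* in 18 and *Ctsb* in 1. *Cd63* kept its call in all of them.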

How the results depend on the processing

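No member called in a comparison of diets turned its direction under the alternatives run. Among members that were not called signs did turn. Without livers 3 to 6 of Soy-20% + SAA the sign changed for 15 of 36 members for Soy-10%, 18 for Soy-20%, 11 for Cas-20% against that diet and 13 in the difference of the effects, and with the GC covariate for 14, 20, 9 and 6. For Soy-10% against Soy-20% + SAA the 6 member calls became 3 with the replicate block, 1 with the GC slope as a covariate and 1 without livers 3 to 6. Single livers left out gave 1 to 6, with 3 without Soy-20% + SAA liver 3, Soy-10% liver 4 or Soy-10% liver 6, 2 without Soy-20% + SAA liver 4 or 5 or Soy-10% liver 1 or 5, and 1 without Soy-20% + SAA liver 6 or Soy-10% liver 3. For Soy-10% against Soy-20% DESeq2 called 1 in place of 0, and left-out livers gave 0. For Soy-20% against Soy-20% + SAA DESeq2 called 1 and a fit of all 30 livers 4 in place of 0, and left-out livers gave 0 to 2 (1 without Soy-20% + SAA liver 1 and 2 without liver 2). For Cas-20% against Soy-20% + SAA RLE factors and a mean of 10 counts as the filter each gave 1, DESeq2 4 and all 30 livers 5 in place of 0, and left-out livers gave 0 to 3 (3 without Soy-20% + SAA liver 1 or 2). For Cas-20% against Soy-20% the GC covariate gave 1 in place of 2, and left-out livers 1 to 2 (1 without Cas-20% liver 3 or Soy-20% liver 4). The difference of the effects against Soy-20% + SAA had 2 calls with the GC covariate, 1 without livers 3 to 6 and 3 to 5 with left-out livers, in place of 4. Against Soy-20% it had 1 with all 30 livers and 1 to 5 with left-out livers (1 without Cas-5% liver 4). Left-out livers gave 10 to 14 calls for casein restriction, 5 to 7 for Cas-5% against Soy-10% (5 without Soy-10% liver 5 or 6) and 15 to 19 over 5 diets. The test over 5 diets without livers 3 to 6 of Soy-20% + SAA, which gave 13 in place of 17, was chosen after seeing the data. The cause of these shifts was not tested.

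Replicate numbers did not pair the livers, since correlations of same-numbered livers between diets ran from −0.19 to 0.24. The replicate block gave 11 in place of 12 calls for casein restriction, 7 in place of 8 for the restricted diets, and 4 and 3 for the differences of the effects. Means lay under 100 counts for *Atg9a*, *Gla*, *Tfeb* and *Mcoln1*, which limits their precision. At the *Atg9a* 3′ end 36.5% of short stretches also occur in *Gm29253*, which overlaps it on the same strand. Whether depth or shared reads kept the counts of *Atg9a* low was not tested.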
